A study of Mus musculus with 4 samples.

Results

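Ventral forebrain GABAergic spots were defined as the 250 spots, of 5901 that qualified in the whole series, with the highest combined level of Gad1, Gad2, Dlx1 and Dlx2. A spot is a barcoded disc of an array that captures transcripts from a small region of a tissue section, and it can cover several cells, so each value is that of a region and not of a cell. A spot qualified when it lay over tissue and held at least 2000 unique molecular identifiers (UMIs, counts of captured molecules). The score of a spot was the mean over the 4 genes of log2 of 1 plus the UMIs per 10000 UMIs of that spot, and spots of all capture areas were ranked together. The levels of the 4 genes in these member spots are therefore a product of the choice and are given as a description.

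The series measured whole heads of wild-type C57BL/6J mouse embryos on Visium arrays, with formalin-fixed, paraffin-embedded coronal sections through the middle of the palate, at embryonic days 14.5 (E14.5) and 15.5 (E15.5), on either side of the fusion of the palatal shelves. Each stage had 2 capture areas: replicate 1 was 1 section on an area of its own, and replicates 2 to 4 were 3 sections that shared 1 area. No allele or treatment differed between the groups, and the only labelled difference was stage. The labels do not say which of the 3 sections on a shared area is which replicate, so the area served as the sample (n = 2 per stage), and the sections on shared areas are called A, B and C here only by their place on the array.

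GABAergic neurons of the forebrain arise in the ganglionic eminences, the swellings of the ventral telencephalon, and in the neighbouring septum. Dlx1, Dlx2, Dlx5 and Dlx6 encode homeodomain factors that act in succession in their progenitors and newborn neurons, and Gad1 and Gad2 encode the glutamate decarboxylases that make GABA. The lateral eminence gives rise mainly to striatal projection neurons and olfactory bulb interneurons, while the medial eminence, marked by Nkx2-1 and its targets Lhx6 and Lhx8, gives rise to cortical interneurons and pallidal neurons. Dlx genes, Msx1 and Lhx8 are also used by the mesenchyme of the jaws and palate, which lies on the same sections.

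The areas held 859, 2104, 988 and 1950 qualifying spots for E14.5 replicate 1, E14.5 replicates 2-4, E15.5 replicate 1 and E15.5 replicates 2-4, the order used for every set of 4 values here. Total UMIs per area ran from 15438992 in E14.5 replicate 1, the shallowest, to 109127953, and the median qualifying spot held 11121 UMIs in that area against 45506 to 64067.5 in the others. Tissue spots of different areas shared 540 to 1388 barcodes, which are array positions and not cells.

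The members numbered 49, 72, 37 and 92, and they summed to 1788894, 3132407, 2326156 and 2701698 UMIs. Their share of the qualifying spots was 5.70% (95% Wilson interval 4.34 to 7.46), 3.42% (2.73 to 4.29), 3.74% (2.73 to 5.12) and 4.72% (3.86 to 5.75), intervals that cover counting error only. The share at E14.5 was 4.56% ± 1.61 and at E15.5 4.23% ± 0.688 (SD, n = 2 areas each). The stages overlapped, with a difference of -0.33 percentage points and a two-sided exact permutation p of 1.0, where the smallest p that 2 against 2 allows is 0.33. Within the areas of software version 1.3.1 the difference was -1.96 points and within those of version 2.0.0 it was 1.296. The sign of the pooled difference changed when 150 spots were taken (0.290), without E14.5 replicate 1 (0.809) and without E15.5 replicate 1 (0.155).

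The number of members differed between sections of 1 area. Of the 3 sections of E14.5 replicates 2-4, section A held 17 members (3.35% of its spots), B held 15 (1.65%) and C held 40 (5.95%). On the area of E15.5 replicates 2-4, section A held 68 members (8.67%), B held 24 (4.17%) and C held 0 of 526 spots, a count that allows a share of up to 0.570%. Thus 7 of the 8 sections supplied members, and which level of the forebrain each section passed through is not labelled.

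Members lay together. Of the 250, 240 touched another member and 10 touched none, 50.03% of the spots neighbouring a member were members, and 13 patches of 5 or more spots held 221 of them. Along an axis in each section from the end on the side of the muscle spots (0) to the opposite end (1), the members' mean position was between 0.747 and 0.920. The muscle spots had mean positions of 0.195 to 0.355, and a section held 6 to 54 of them, so the axis rests on few spots in some sections. The muscle spots and the cortical spots were the 250 qualifying spots outside the members with the highest scores for muscle and for cortical excitatory genes. Cortical spots lay farther along the axis. Members minus cortical spots came to -0.117, -0.0931, -0.136 and -0.115 of the section's length, a mean of -0.115 ± 0.0174 (SD, n = 4 areas), so members were nearer to the muscle end. The direction was the same in 4 of 4 areas, with a two-sided exact sign-flip p of 0.13, the smallest that 4 areas allow. With the 400 highest spots as members the mean was -0.0357, and with members chosen after every spot was thinned to 2000 UMIs it was -0.0452. With the same share of spots taken in every area it was -0.0777. In each of these settings the exact sign-flip p was above the smallest that 4 areas allow, so the areas no longer all shared a direction. In the main choice, the value of E15.5 replicates 2-4 rests on 1 section with 13 cortical spots. That of E14.5 replicates 2-4 includes a section with 1 cortical spot.

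**Figure D1:**
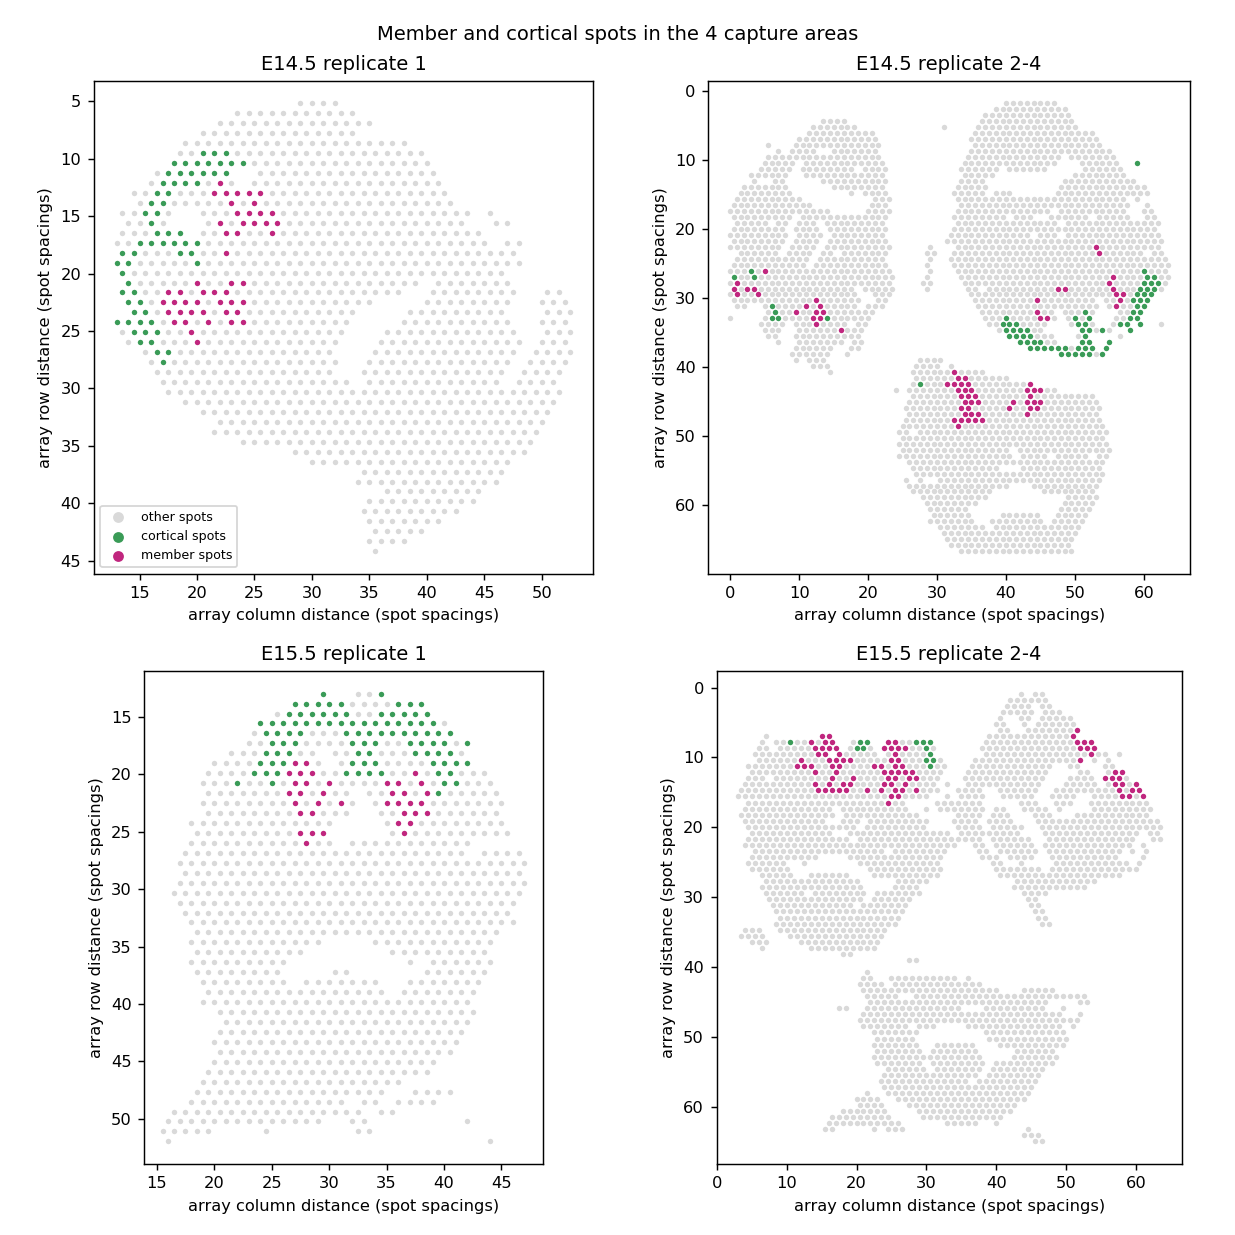
Positions of member spots and cortical spots among all tissue spots of each capture area, those under 2000 UMIs included, with array column and row distance in spot spacings on the axes and 1 panel per area. Members lie in 7 of the 8 sections, and section C of E15.5 replicates 2-4 holds none. The largest patch of a section holds from 7 to 31 spots. Section A of E14.5 replicates 2-4 is the most scattered, with 17 members in 7 patches, 4 of them single spots.

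The score ran from 1.40 at the lowest member to 2.60 at the highest, with a median of 1.59. The first spot left out also scored 1.40, the 366 spots that touched a member without being one had a median of 1.15, and the 5285 remaining spots had a median of 0.157. Gad2 had a median of 8.75 UMIs per 10000 in the 25 lowest members and 8.87 in the 25 highest spots outside, so the boundary cuts through a gradual fall and not a gap. Of the members, 190 held a UMI of each of the 4 genes, 46 of 3 of them and 14 of 2.

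Depth bears on which spots were chosen. When every spot was thinned to 2000 UMIs, 13 of the 250 members held no UMI of the 4 genes, 127 held 1 of the genes, 88 held 2, 22 held 3 and 0 held all 4. A choice made on thinned spots shared 113 of its 250 spots with the members, a choice with a minimum of 5000 UMIs shared 240, and a choice of the same share in every area shared 228. The members' median depth was 34357, 35567.5, 58507 and 21690.5 UMIs per spot in the 4 areas.

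Gad2, which encodes the glutamate decarboxylase found at nerve terminals, stood at 1307, 1140, 1284 and 1038 CPM (a gene's UMIs in each 1000000 UMIs of an area's summed members), against 152, 179, 117 and 57.3 in all other spots. Gad1, the other glutamate decarboxylase gene, was at 93.4, 69.0, 93.3 and 111 CPM against 12.5, 9.76, 7.20 and 5.42. Dlx1 was at 98.4, 69.6, 75.7 and 153 CPM in members, and Dlx2 at 135, 117, 135 and 135. All 4 genes were 4.82-fold or more above the other spots in every area, as the choice of members requires.

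In spots thinned to 2000 UMIs, Gad2 was detected in 89.6% of members, 22.0% of cortical spots and 1.60% of muscle spots, which should lack it. Without thinning the shares were 100%, 88.8% and 40.0%, at median depths of 34792, 51453.5 and 74594 UMIs. Gad1 was detected in 20.4% of thinned members and 0.00% of thinned muscle spots, with unthinned shares of 90.8% and 8.80%. Dlx5 was detected in 72.4% of thinned members and 9.60% of thinned muscle spots, with unthinned shares of 99.2% and 92.0%, and it is a gene that the jaw mesenchyme also uses.

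Genes of the GABAergic program that played no part in the score were high in the same spots. All 7 measured genes of a GABAergic identity list without the 4 score genes were at least 2-fold above the other spots in each of the 4 areas, against 156 of 13129 genes (1.19%) with at least 20 UMIs in the members or in the other spots of every area. Since the score genes are expressed in the same cells, the count describes the choice and nothing is read from it. The median gene of the list had a log2 ratio of 2.28, and the median of all genes was -0.16. With no minimum fold, 28.1% of the 13129 genes were higher and 43.3% lower in the members of all 4 areas.

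Slc32a1, which encodes the transporter that loads GABA into vesicles, was at 49.8, 69.0, 56.8 and 53.3 CPM, between 5.01-fold and 14.8-fold above the other spots. Abat, the gene of the enzyme that breaks GABA down, was 2.53-fold to 3.82-fold higher. Dlx5 stood at 684, 827, 770 and 671 CPM and Dlx6 at 240, 325, 253 and 217, with ratios of 3.70 to 5.73 and 3.63 to 5.30. Sp9, a zinc finger gene of ventral neuroblasts, was 4.17-fold to 8.41-fold higher. None of these ranges reached 1, so the areas of members and of other spots did not overlap in any of them.

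**Figure D2:**
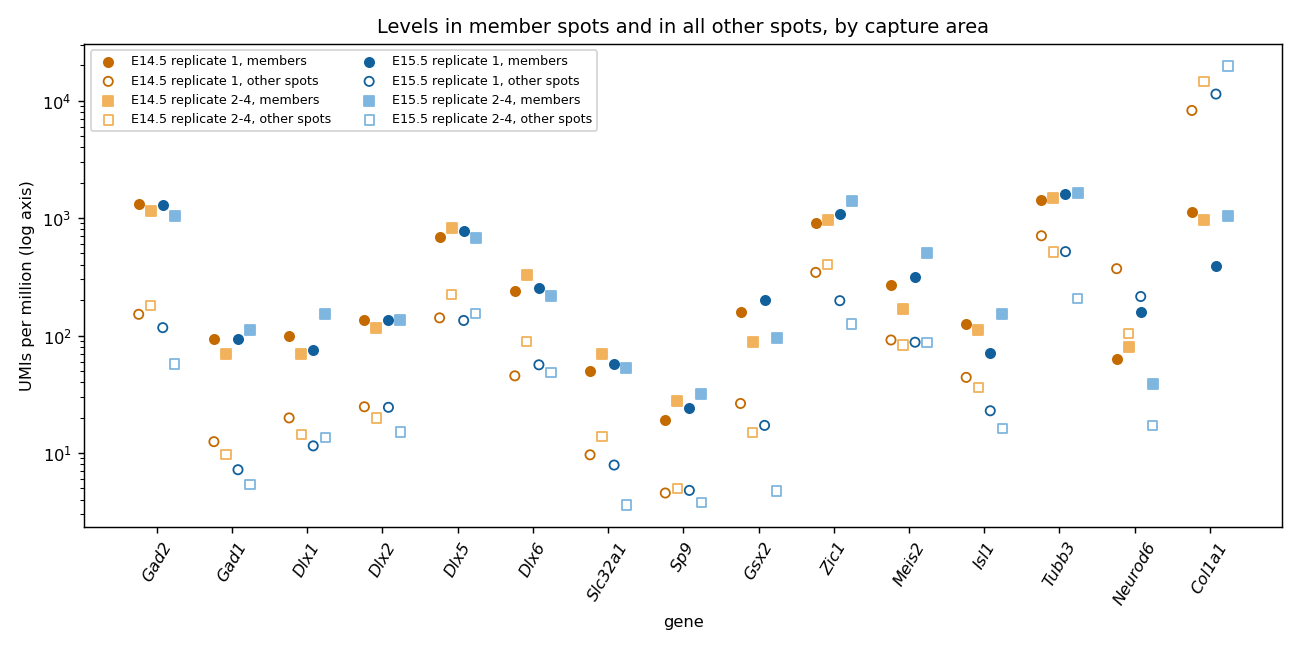
CPM on a log axis for GABAergic, progenitor, lineage and non-neural genes, with 1 filled point per capture area for members and 1 open point for all other spots. Gad2 lies at 1038 to 1307 in members and at 57.3 to 179 elsewhere, while Col1a1 lies at 392 to 1131 in members and at 8254 to 19760 elsewhere.

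Progenitor genes of the ventral telencephalon were high as well. Of 7 measured genes, 5 were at least 2-fold above the other spots in all 4 areas, against 1.19% of all genes, with a median log2 ratio of 1.82. Progenitors also use the score genes Dlx1 and Dlx2, so this count too describes the choice of spots. Gsx2, a homeobox gene of the lateral eminence's ventricular zone, was at 159, 87.1, 202 and 95.5 CPM, 5.88-fold to 19.97-fold above the rest. The members of every area thus held transcripts of progenitors and of neurons.

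Of 17 measured genes of the striatal lineage list, 12 were higher in members in all 4 areas, where 28.1% of all genes were. At least 2-fold higher were 6, against 1.19% of all genes, and the list's median log2 ratio was 0.85. Isl1, a LIM homeobox gene of direct-pathway striatal neurons, was at 126, 111, 71.4 and 152 CPM and 2.87-fold to 9.34-fold above the rest. Meis2, a TALE homeobox gene of the lateral eminence and striatum, was at 272, 170, 318 and 500 CPM and 2.04-fold to 5.70-fold above. Drd2, the dopamine D2 receptor gene, was 2.75-fold to 11.4-fold higher. Penk, the proenkephalin gene, went the other way and was lower than in the other spots by 7.11-fold to 31.1-fold.

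Septal markers included Zic1, a zinc finger gene also used in the meninges and in the medial forebrain, at 910, 961, 1092 and 1399 CPM and 2.38-fold to 11.2-fold above the rest. Of 5 septal genes, 4 were higher in all 4 areas. Of 8 genes of the caudal eminence lineage 2 were higher and 3 lower in all 4 areas, and of 12 of the medial eminence lineage 5 were higher and 2 lower, beside 28.1% and 43.3% of all genes. Of 6 measured genes of a hypothalamus and diencephalon list, 1 was higher and 3 were lower in all 4 areas, and the list summed to 32.2 to 60.9 CPM in members against 98.5 to 143 elsewhere. The higher one was Gbx2, a homeobox gene of the thalamus, at 12.3, 5.75, 5.16 and 5.92 CPM in members against 2.62, 4.22, 1.71 and 0.822, a gene chosen after its values were seen. Sim1, a hypothalamic gene of the same list, had no UMI in any member and at most 2.48 CPM in the other spots of an area, where the members' 9949155 UMIs put the limit that a count of 0 allows at 0.302 CPM.

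The genes with the largest lowest ratio over the 4 areas, outside the score genes, were led by A230072I06Rik, an uncharacterised transcript, at 9.88-fold to 22.96-fold. Pou3f4, a POU homeobox gene of the ventral telencephalon, was at 373, 392, 396 and 287 CPM and 6.01-fold to 16.6-fold above the rest. Slc18a2, which encodes the vesicular monoamine transporter, was at 624, 344, 619 and 479 CPM and 5.50-fold to 15.4-fold above. Nrxn3, a presynaptic adhesion gene, was 4.03-fold to 13.1-fold higher, Syt6, a synaptotagmin gene, 3.77-fold to 6.72-fold, and Arl4d, a small GTPase gene, 3.60-fold to 5.202-fold. Dmrtb1, a DM-domain gene, was 4.40-fold to 14.8-fold higher.

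Genes of several non-neural tissues were low in members. Of all genes, 1840 (14.0%) were at least 2-fold lower in members in every area, and they included 8 of 8 mesenchyme genes, 4 of 4 muscle genes, 4 of 4 epithelial genes and 3 of 3 cartilage genes. Other lists went less far. They had 2 of 4 endothelial genes, 1 of 4 microglial genes and 0 of 2 choroid plexus genes at least 2-fold lower in every area. Of the microglial genes, 1 was higher in members in every area. Col1a1, the type I collagen gene, was at 1131, 958, 392 and 1038 CPM in members, 7.30-fold to 29.0-fold below the other spots. Myh3, an embryonic myosin heavy chain gene, was at 44.7, 33.8, 5.59 and 19.2 CPM, and Tubb3, a tubulin gene of neurons, was 2.03-fold to 7.91-fold above the rest. The summed mesenchyme list stood at 2732, 1989, 919 and 1958 CPM, so every area's members still held some mesenchymal transcripts. In bulk sums of spots, fewer cells of a type and less RNA per cell cannot be told apart.

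The label was also checked against the cortex. Before members were left out, 1 of the 250 members was among the 250 spots with the highest cortical score. Among the 250 spots with the highest radial glia score there were 8. All 10 cortical excitatory genes were at least 2-fold lower in members than in cortical spots in all 4 areas, against 220 of 9682 genes (2.27%), with a median log2 ratio of -3.58. All 7 GABAergic identity genes were at least 2-fold higher, against 214 genes (2.21%). Both sides of this comparison were chosen on such genes, so the counts are a description, and E15.5 replicates 2-4 had only 13 cortical spots.

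Dlx5 was 8.90-fold to 16.4-fold above the cortical spots. In the 3 areas with more than 3 cortical UMIs of the gene, Dlx6 was 13.1-fold to 24.9-fold higher, Ecel1, a membrane metalloprotease gene, 10.04-fold to 21.3-fold, and Prdm12, a PR-domain gene, 10.7-fold to 21.8-fold. In E15.5 replicates 2-4 the cortical spots held 3, 1 and 1 UMIs of these genes. Gsx2 had none there, so no ratio is given for that area. In the other direction, Slc17a7, a vesicular glutamate transporter gene, was 9.002-fold to 12.3-fold lower in members. Wnt7b, a Wnt ligand gene of deep cortical layers, was 10.5-fold to 44.8-fold lower. Ppp1r1b, the DARPP-32 gene that marks mature striatal neurons, was also 8.35-fold to 19.97-fold lower in members than in cortical spots.

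Cell cycle genes stood above the cortical level too. Of 7 measured, 6 were higher in members in all 4 areas, where 24.7% of all genes were higher and 24.1% lower. At least 2-fold higher were 4, against 2.21% of all genes, and the list's median log2 ratio was 1.41. Against all other spots of the head, 4 of 8 cell cycle genes were higher in all areas and 1 was lower, with a median of 0.31. Of all genes, 28.1% were higher there and 43.3% lower.

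Within the members, progenitor and neuronal genes were arranged along the axis. In each section the members were split by position into the part nearest the muscle, a middle part and the part farthest from it, and the near and far parts were summed by area. The near parts held 581921, 1348336, 660562 and 737753 UMIs and the far parts 711907, 517706, 897767 and 959084. Over 8005 genes with at least 20 UMIs in both parts together of every area, 1671 (20.9%) were higher and 1819 (22.7%) lower in the far part in 4 of 4 areas, and the median log2 ratio was -0.01. The position was not part of the score, but the lists were chosen with earlier results of these data known and this comparison has no test.

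All 7 measured cell cycle genes were higher far from the muscle in 4 of 4 areas, with a median log2 ratio of 1.09. Mki67, the Ki-67 proliferation antigen gene, was at 339, 412, 365 and 251 CPM near the muscle and 636, 771, 743 and 723 far from it. Cdk1, the mitotic kinase gene, was at 356, 272, 294 and 172 near and 750, 587, 614 and 463 far. The near and far values of both genes did not overlap between areas.

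Progenitor genes followed the same direction. Of 9 radial glia genes 5 were higher far from the muscle in all areas and 0 were lower, and of 6 ventral progenitor genes 3 were higher and 0 lower. Fabp7, a lipid-binding protein gene of radial glia, was at 75.6, 70.5, 54.5 and 88.1 CPM near and 204, 149, 177 and 285 far. Gsx2 was at 98.0, 82.3, 124 and 36.6 CPM near and 233, 106, 251 and 140 far. For Gsx2 the ranges over areas overlapped, while each area moved the same way.

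Neuronal genes went the opposite way. Of 11 pan-neuronal genes, 10 were lower far from the muscle in all areas, with a median log2 ratio of -0.72. Mapt, the gene of the microtubule protein tau, was at 983, 832, 1120 and 1251 CPM near and 434, 317, 348 and 380 far. Slc12a5, the chloride exporter gene that sets the response of a neuron to GABA, was at 37.8, 42.3, 34.8 and 54.2 near and 11.2, 7.73, 11.1 and 10.4 far. All 4 measured GABA receptor genes were lower far from the muscle in all areas, with a median log2 ratio of -0.81.

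**Figure D3:**
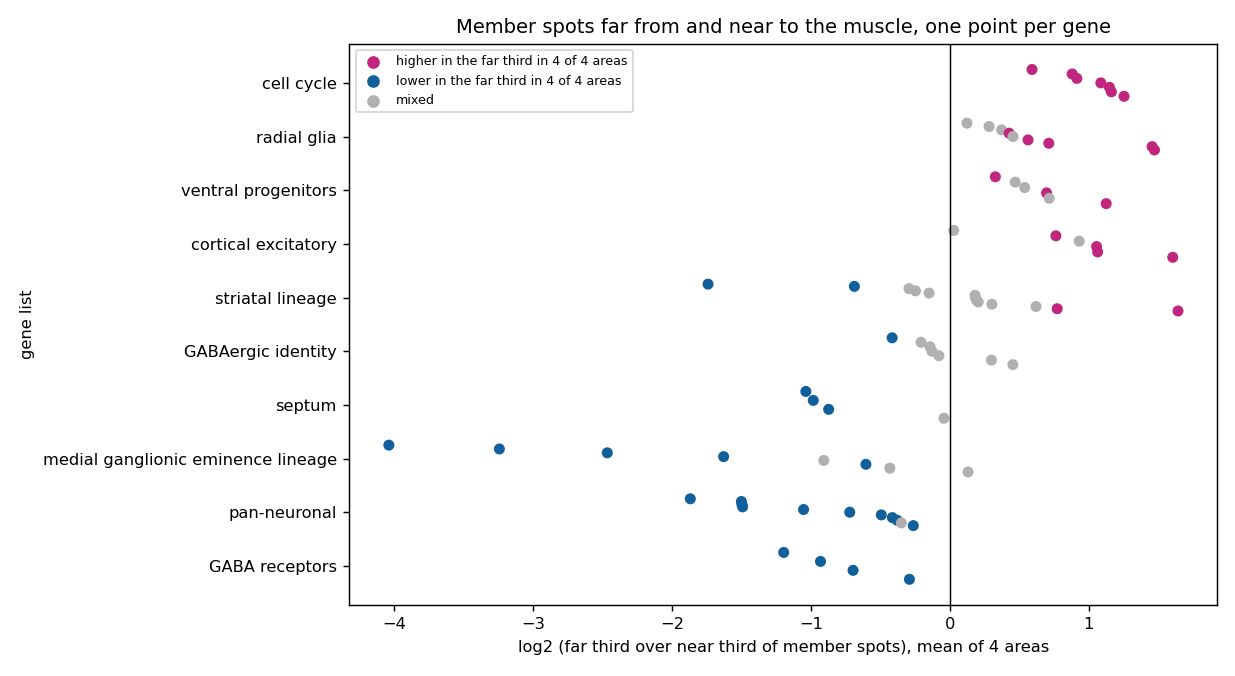
Log2 ratio of the far over the near part of the members, as the mean of 4 capture areas, with 1 point per gene and 1 row per gene list. All 7 cell cycle genes lie to the right of 0 with a median of 1.09, and all 4 GABA receptor genes lie to the left with a median of -0.81.

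The GABAergic identity genes themselves showed little of this gradient, with 0 of 7 higher and 1 lower in all areas and a median log2 ratio of -0.13. Medial eminence genes were concentrated near the muscle. Of 8 measured, 5 were lower far from it in all areas and 0 higher, with a median of -1.27. Lhx6, a LIM homeobox gene of migrating interneurons, was at 287, 1327, 268 and 302 CPM near and 60.4, 392, 29.0 and 44.8 far. Lhx8, a LIM homeobox gene of cholinergic and pallidal neurons, was at 211, 458, 129 and 182 near and 40.7, 25.1, 2.23 and 7.30 far, and Sst, the somatostatin gene, at 87.6, 117, 174 and 195 near and 64.6, 23.2, 57.9 and 39.6 far.

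Striatal genes were mixed, with 2 of 13 measured genes, Adora2a and Rxrg, higher and 2, Tac1 among them, lower far from the muscle in all areas. Among 16 migration and guidance genes, 5 were higher far from it in all areas, including Cxcr4 and Ackr3, both receptors of the chemokine Cxcl12, and 7 were lower. Nrp2, a semaphorin receptor gene, was among the latter at 215, 174, 216 and 286 CPM near and 36.5, 38.6, 39.0 and 58.4 far. Non-neural transcripts moved along the axis too. Col1a1 was at 1406, 1101, 730 and 2056 CPM near and 900, 838, 233 and 470 far, and 3 of 5 mesenchyme genes were lower far from the muscle in all areas. Of 6 cortical excitatory genes 4 were higher far from it. The part of either in the other differences was not tested.

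The medial eminence genes also varied widely between sections, and the windows before the start sites of 3 of them are shown because the stage calls turn on them, with that of the score gene Dlx2 beside them. Each window is from RefSeq on GRCm38 and is read 5′ to 3′ on the gene's strand, with matches to homeodomain core motifs in capitals. For Dlx2, Nkx2-1 and Lhx8 it ends at the last base before the first exon. For Lhx6 it ends before an internal start, so it lies within the gene's span. Dlx2 lies at chr2:71543408-71546754, Nkx2-1 at chr12:56531958-56536908, Lhx6 at chr2:36081953-36105408 and Lhx8 at chr3:154306294-154330659, all on the minus strand. The windows are chr2:71546755-71547004 for Dlx2, chr12:56536909-56537158 for Nkx2-1, chr2:36104061-36104310 for Lhx6, before the most downstream of its 3 listed starts, and chr3:154330660-154330810 for Lhx8, cut to 151 bases where annotated exons begin.
Dlx2: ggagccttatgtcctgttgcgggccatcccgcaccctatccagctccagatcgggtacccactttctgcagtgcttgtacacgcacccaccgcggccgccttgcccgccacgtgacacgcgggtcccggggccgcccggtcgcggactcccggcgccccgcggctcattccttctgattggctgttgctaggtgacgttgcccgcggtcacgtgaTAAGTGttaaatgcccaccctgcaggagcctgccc
Nkx2-1: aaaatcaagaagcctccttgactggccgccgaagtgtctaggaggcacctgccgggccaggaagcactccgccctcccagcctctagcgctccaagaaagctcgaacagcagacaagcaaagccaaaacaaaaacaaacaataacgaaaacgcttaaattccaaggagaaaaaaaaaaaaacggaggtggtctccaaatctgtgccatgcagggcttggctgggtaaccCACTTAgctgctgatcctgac
Lhx6: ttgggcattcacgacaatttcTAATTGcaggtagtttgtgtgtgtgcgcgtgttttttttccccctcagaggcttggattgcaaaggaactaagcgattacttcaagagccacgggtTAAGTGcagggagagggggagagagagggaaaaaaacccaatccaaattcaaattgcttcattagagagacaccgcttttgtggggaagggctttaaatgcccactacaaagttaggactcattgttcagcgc
Lhx8: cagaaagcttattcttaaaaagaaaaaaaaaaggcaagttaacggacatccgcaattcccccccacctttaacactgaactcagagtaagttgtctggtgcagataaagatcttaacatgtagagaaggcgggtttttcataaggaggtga
The motifs searched on both strands were TAATTA together with TAATTG, which are cores bound by many homeodomain factors, and CAAGTG together with TAAGTG, which are cores of the NK-2 class to which Nkx2-1 belongs. The third of these is also a form of the E-box CANNTG. The second and the last were chosen after the windows had been read. In the Dlx2 window TAAGTG stood 35 bases before the end, and in the Lhx6 window it stood 133 before it, with TAATTG at 229. The Nkx2-1 window held the reverse complement of the former, CACTTA, 21 bases before its end, and the Lhx8 window held none of the 4 motifs. Of 32536 windows of 250 bases in the annotation, 4.84% held TAATTA, 7.18% TAATTG, 11.5% CAAGTG and 7.73% TAAGTG, and of 32475 windows of 151 bases 2.76%, 4.12%, 6.57% and 4.26%. A match describes letters only and says nothing of binding.

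Nkx2-1 stood at 38.6 and 707 CPM in the members of the E14.5 areas and at 15.05 and 35.9 at E15.5. Lhx6 was at 174 and 1072 against 97.6 and 111, and Lhx8 at 128 and 299 against 43.0 and 64.0. The stages did not overlap by area for any of the 3 genes, but the 2 areas of E14.5 lay far apart. By section, Nkx2-1 was at 38.6 in E14.5 replicate 1 and at 5.61, 139 and 984 in sections A, B and C of E14.5 replicates 2-4, while the E15.5 sections held 15.05, 50.2 and 4.72. Lhx6 was at 174 and at 33.7, 224 and 1484 in the E14.5 sections, and at 97.6, 151 and 23.6 at E15.5. The stages overlapped by section for both genes, and section C of E14.5 replicates 2-4 was the highest for both.

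Section C also differed in other genes. Ttr, the transthyretin gene of the choroid plexus, reached 5339 CPM in its members and 2049 in those of section B, against 33.7 or less in the members of the other 5 sections. The members of section C held Meis2 at 117 CPM, where the members of the other sections held 266 to 547. Section B of E15.5 replicates 2-4 stood at the other end, with Meis2 at 547, Zic1 at 1687, Calb2, a calretinin gene, at 158 and Sp8, a zinc finger gene of olfactory bulb and caudal eminence interneurons, at 88.4 CPM, and Ebf1, a gene of striatal neurons, at 35.4 CPM. Gad2 ran from 841 to 1367 CPM and Dlx5 from 635 to 840 over the 7 sections. Section A of E14.5 replicates 2-4 was the shallowest, with 178201 UMIs in 17 members.

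**Figure D4:**
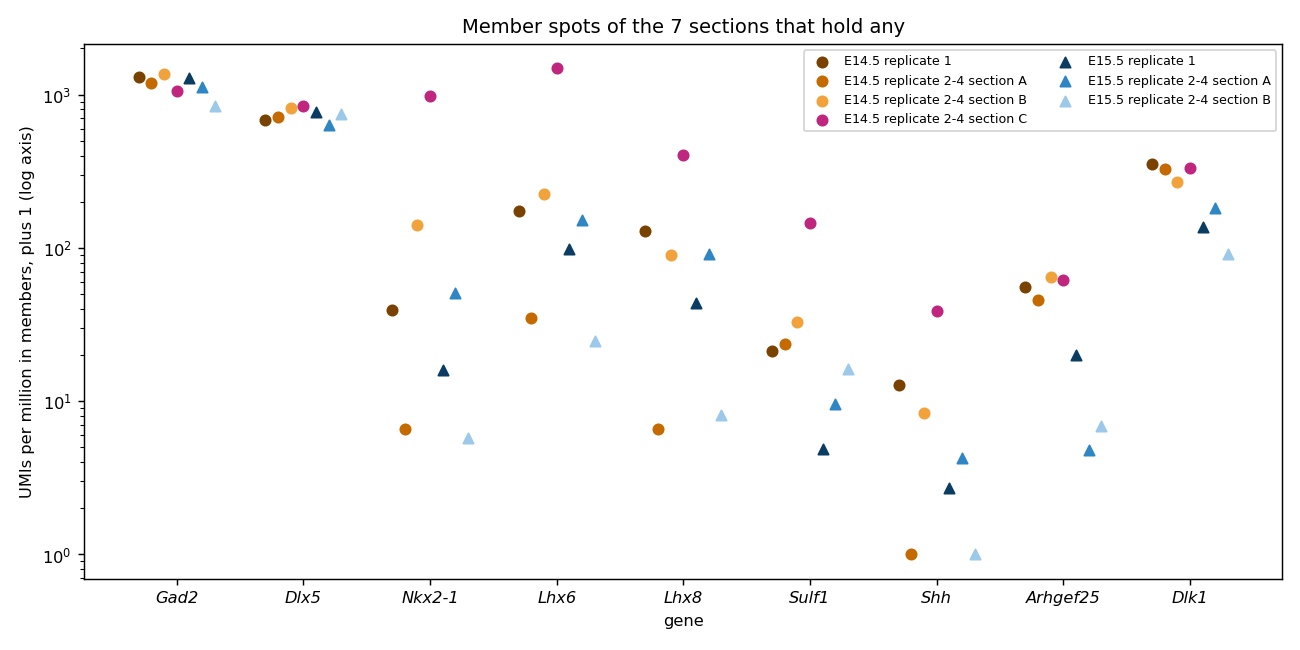
CPM plus 1, on a log axis, in the members of each of the 7 sections that hold any, with circles for E14.5 and triangles for E15.5 sections. Gad2, a score gene whose level the choice of members holds high in every section, runs from 841 to 1367. Dlx5 runs from 635 to 840, Nkx2-1 from 4.72 to 984 and Lhx6 from 23.6 to 1484.

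Between stages, 16 of 11034 genes (0.145%) passed the test in members, and none of them was on the GABAergic identity list. The members of every area were chosen by the same minimum of the combined score, so no stage test is reported for the score genes. The test was edgeR's quasi-likelihood test on member sums, with 2 areas per stage, Benjamini-Hochberg adjustment over 11034 genes and a threshold of 0.1. The study describes its spatial experiments as biological triplicates, but neither its methods nor the labels tie these sections to embryos, so the p-values measure the spread between these areas, which may be technical. Dlx5 differed by a log2 fold of -0.10 ± 0.27 (SE) for E15.5 over E14.5, Dlx6 by -0.31 ± 0.28 and Slc32a1 by -0.16 ± 0.30, each with an edgeR adjusted p of 1.0. Of the 7 GABAergic identity genes 0 passed, of 17 striatal genes 0, of 7 ventral progenitor genes 0 and of 8 cell cycle genes 0. In lists this short, counts of 0 are near the 0.145% of all genes, so nothing is read from them. Meis2 was higher at E15.5 by 0.86 ± 0.29 with an edgeR adjusted p of 0.740.

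The test called 16 genes (0.145% of those tested), all lower at E15.5. The direction was not 1-sided under every alternative. Both replicate 1 areas carry software version 1.3.1 in their matrix headers and both others version 2.0.0, and with this version as a block, which equals the replicate number, 34 genes were called, 4 higher and 30 lower. By edgeR 0 genes were higher at the adjusted threshold, 436 genes had an unadjusted p under 0.05 in either direction, and DESeq2 called 10 genes, also with 0 higher. Of 11034 genes, 1483 (13.4%) had both E15.5 areas above both E14.5 areas and 1532 (13.9%) had both below. Leaving out E14.5 replicate 1 gave 142 calls, E14.5 replicates 2-4 gave 73, E15.5 replicate 1 gave 43 and E15.5 replicates 2-4 gave 60, of which 43, 19, 21 and 1 were higher at E15.5. These are fits in which the lone area of a stage is assumed to vary like the pair of the other.

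The called genes included 3 of 11 tested medial eminence genes. Nkx2-1 fell by 3.95 ± 0.67 on the log2 scale (SE, edgeR adjusted p = 0.00773), Lhx6 by 2.65 ± 0.47 (0.00775) and Lhx8 by 2.06 ± 0.35 (0.00773). Sulf1, which encodes a sulfatase that edits heparan sulfate, fell by 3.20 ± 0.54 (0.00773), from 20.1 and 108 CPM to 3.87 and 10.7. Shh, the gene of the ventral patterning signal Sonic hedgehog, fell by 3.37 ± 0.59 (0.00775), from 11.7 and 27.8 CPM to 1.72 and 2.22. Of the sections, section C held the highest member level of each of these 5 genes.

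Without the spots of section C, an alternative chosen after seeing the data, 9 genes passed, 6 of them among the 16. Nkx2-1 then differed by -1.60 (edgeR adjusted p = 0.189), Lhx6 by -0.84 (0.776), Lhx8 by -0.96 (0.631), Sulf1 by -1.77 (0.276) and Shh by -2.22 (0.486). Over all alternatives the edgeR or DESeq2 adjusted p of Lhx6 ran from 1.37e-21 to 1.0, of Nkx2-1 from 2.63e-39 to 1.0, of Lhx8 from 1.21e-11 to 0.915, of Sulf1 from 1.94e-23 to 1.0 and of Shh from 2.48e-08 to 0.881. Without E14.5 replicates 2-4 as a whole, Nkx2-1 differed by -0.55, Lhx6 by -0.70, Sulf1 by -1.40 and Shh by -2.49, none past the threshold, and Lhx8 by -1.21, past it. The level of the section and the stage cannot be told apart for these genes. With the 400 highest spots as members, or with members chosen on thinned spots, 0 genes passed edgeR's adjusted threshold, with 462 and 552 genes at an unadjusted p under 0.05.

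**Figure D5:**
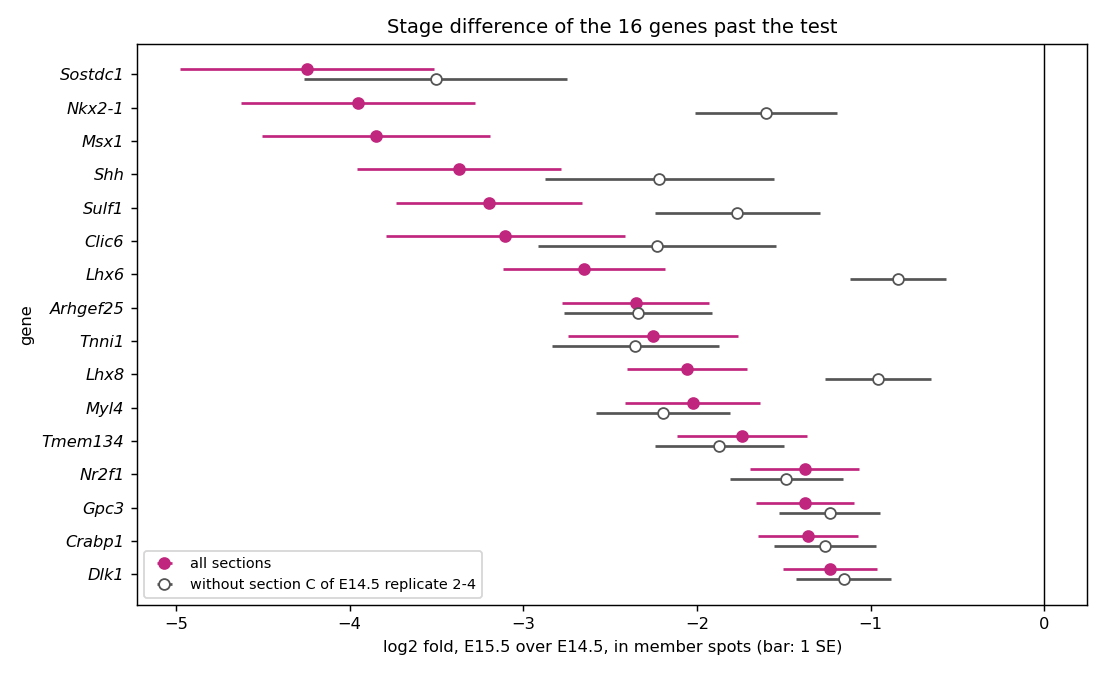
Log2 fold of E15.5 over E14.5 in member spots, with bars of 1 SE, for the 16 genes that passed the test, with all sections (filled) and, for the 15 tested there, without section C of E14.5 replicates 2-4 (open). All filled points lie below 0, and Nkx2-1 moves from -3.95 to -1.60 and Lhx6 from -2.65 to -0.84 without that section.

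Of the calls that did not rest on section C, Arhgef25, a guanine nucleotide exchange factor gene, fell by 2.35 (edgeR adjusted p = 0.00956), and by 2.34 without section C (0.0347). Over all alternatives its adjusted p by edgeR or DESeq2 ran from 2.48e-08 to 0.5258. It was at 54.8 and 60.3 CPM at E14.5 and 18.9 and 4.44 at E15.5 in members, and at 135 and 160 against 47.0 and 17.3 in all other spots. Tmem134, a transmembrane protein gene, was at 46.4 and 31.3 against 14.6 and 8.88 CPM in members and at 66.5 and 65.3 against 35.1 and 22.0 elsewhere. Their stage difference in members minus that in other spots was -0.19 ± 0.27 (edgeR adjusted p = 0.875) and -0.51 ± 0.28 (0.515), so neither was shown to be particular to the members. Nr2f1, a nuclear receptor gene of the caudal eminence list, passed narrowly with a log2 fold of -1.38 (edgeR adjusted p = 0.0997), at 127 and 230 CPM against 80.0 and 62.2, and lost its call without E14.5 replicates 2-4 (-0.79).

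Several called genes are mainly genes of non-neural tissue. They were Myl4 and Tnni1, a myosin light chain and a troponin gene of embryonic muscle, Msx1, a homeobox gene of jaw mesenchyme, Dlk1, a Notch-family ligand gene of muscle and mesenchyme, and Gpc3, a glypican gene. Msx1 was at 15.1 and 19.8 CPM in members at E14.5 and at 2.15 and 0.370 at E15.5, and was not tested without section C. The summed muscle list in members stood at 88.3 and 54.9 CPM at E14.5 against 9.03 and 31.5 at E15.5, where the other spots held 761 and 2245 against 2447 and 2905. The summed mesenchyme list stood at 2732 and 1989 against 919 and 1958, with 0 of 8 genes past the stage test. The part of these transcripts in the stage calls was not tested. Of the jaw mesenchyme list, both tested genes were called, Msx1 and Lhx8, and Lhx8 is also a gene of the medial eminence list.

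Clic6 (log2 fold -3.10, edgeR adjusted p = 0.0846), a chloride channel gene of the choroid plexus, and Sostdc1 (-4.25, 0.00773), an inhibitor gene of Bmp and Wnt signals, were also called. Without section C, Clic6 differed by -2.23 (edgeR adjusted p = 0.555) and Sostdc1 by -3.50 (0.0954), and without E14.5 replicates 2-4 as a whole by -0.20 and -2.78, neither past the threshold. Over all alternatives the adjusted p of Clic6 by edgeR or DESeq2 ran from 2.96e-17 to 1.0 and that of Sostdc1 from 2.69e-11 to 0.956. Clic6 was high in sections B and C, which also held Ttr, at 43.9 and 74.96 CPM against 10.6 or less in the members of the other sections. Crabp1, a retinoic acid binding protein gene, was the only called gene of 9 tested in the retinoic acid and dopamine list, with a log2 fold of -1.36 (edgeR adjusted p = 0.0575).

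The genes with the smallest p in the other direction did not pass. Of these, Rab35, a small GTPase gene of endosomes, was higher at E15.5 by 1.74 ± 0.43 on the log2 scale (edgeR adjusted p = 0.176), Plcb1, a phospholipase C gene, by 1.48 ± 0.48 (0.720), Snrnp70, a spliceosome gene, by 1.11 ± 0.31 (0.366), Robo3, a Slit receptor family gene, by 1.20 ± 0.37 (0.570) and Calb2 by 0.98 ± 0.32 (0.720). By section, the E14.5 members held Robo3 at 6.09 to 73.0 CPM and the E15.5 members at 34.5 to 63.7, so the stages overlapped.

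The stage difference in members was set against that in all other spots in one model with the area as a block. By edgeR 1 gene of 13756 passed (0.00727%), and 1659 had an unadjusted p under 0.05. This was Lhx8, whose log2 stage difference was lower in members by 1.95 ± 0.19 (SE, edgeR adjusted p = 0.0618), at 128 and 299 CPM against 43.0 and 64.0 in members and 45.2 and 105 against 59.2 and 82.2 elsewhere. Without section C of E14.5 replicates 2-4 its difference was -1.04 (0.382) and its call was lost, with a range of 5.02e-11 to 0.726 for the adjusted p by edgeR or DESeq2 over all alternatives, while 40 other genes passed. Without E14.5 replicate 1, E14.5 replicates 2-4, E15.5 replicate 1 or E15.5 replicates 2-4 the number was 115, 364, 1008 or 47.

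Against cortical spots 3 genes of 11715 passed (0.0256%). Fgf15, a fibroblast growth factor gene of forebrain progenitors, was at 348 and 202 CPM in members at E14.5 and at 331 and 295 at E15.5, while cortical spots held 69.2 and 36.4 against 6.05 and 11.1. The members' stage difference exceeded the cortical one by 3.29 ± 0.30 on the log2 scale (edgeR adjusted p = 2.24e-05). Aldh1a3, a retinoic acid synthesis gene of the lateral eminence, was at 274 and 46.6 against 337 and 171 CPM in members and at 30.0 and 8.98 against 4.57 and 0.00 in cortical spots, a difference of 3.38 ± 0.36 (0.000155). The 13 cortical spots of E15.5 replicates 2-4 held 3 UMIs of Fgf15 and 0 of Aldh1a3, so the fitted size depends on those counts. The third gene, Sulf1, differed by -3.05 ± 0.47 (0.0156), and its sign turned to 0.65 with members chosen on thinned spots. With the same share of spots in every area the Aldh1a3 difference was 0.67, with members chosen on thinned spots 1.37, with 400 spots 1.64 and without E15.5 replicate 1 8.78, none past the threshold. The Fgf15 difference was 1.85 with the same share of spots and 2.32 without E15.5 replicate 1, neither past it. Leaving out the areas in turn gave 160, 32, 8 and 3 calls. With the same share of spots in every area, 0 genes passed edgeR's adjusted threshold and 256 had an unadjusted p under 0.05.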

How the data were processed

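Spatial gene expression was measured on 4 Visium FFPE capture areas. The deposited values are unnormalized counts of UMIs for each gene in each spot, beside array positions and tissue flags of the spots. Per the submitters' processing notes Space Ranger and Cell Ranger were used with mm10, and the matrix headers give software versions 1.3.1 and 2.0.0. Alignment settings are not given in the sources used here. Each area is 1 sample, and spots are not replicates.

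Members were the 250 highest qualifying spots (at least 2000 UMIs). Their counts were summed by area and tested with edgeR 4.0.16 (TMM, filterByExpr, quasi-likelihood test, Benjamini-Hochberg adjusted p under 0.1), with an area block where regions were compared. The SE beside an edgeR log2 fold was calculated back from the test, as the size of the fold divided by the square root of the F statistic. DESeq2 1.42.0, limma 3.58.1, R 4.3.3, Python 3.11.15, numpy 2.4.6, scipy 1.17.1, pandas 2.3.3 and matplotlib 3.10.9 were also used. Ratios of CPM between kinds of spots needed at least 20 UMIs of the gene in either kind in every area and have no test. Sections were separated by adjacency of spots, keeping groups of at least 100. Where an area showed fewer groups than the replicates its label names, the largest group was divided by k-means clustering of the spot positions. The tests were tested on simulated data.

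The members and the gene lists were chosen with earlier results of these data known. Named genes were the 15 with the largest lowest ratio over other spots, the 10 highest and 10 lowest against cortical spots, the 6 smallest p in each direction between stages, and all list genes that passed. Other named list genes were picked as examples after their values were seen. Alternatives were another tool, normalization, filter and threshold, the replicate block, sections as samples, thinned spots, other numbers of members, other minimums, and each area left out. No doublet caller was run, since spots cover several cells. Depth was 15438992 to 109127953 UMIs per area. Dlx6os1, Ccnb1 and Actc1 were not analysed here, and some genes that the rule names are not reported here.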

Additional observations from a re-analysis of the deposited data

Results flagged for a closer look

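Sections were examined in 25 groups, the member share at each stage and the member levels of single genes in the E14.5 sections. In 4 groups, all of genes, the highest section stood apart from the others by more than Dixon's 95% limit. Chance passes it in about 1 in 20 groups, but nearly all these genes had been named by their stage difference in these data. That rate is therefore no yardstick for them. Section C of E14.5 replicates 2-4 was the highest for Lhx6 (1484 CPM), Nkx2-1 (984 CPM) and Sulf1 (144 CPM) in members, and section A, the one with the fewest UMIs, for Plcb1 (33.7 CPM). Stage differences in members differed by test from those elsewhere for Lhx8 against all other spots (-1.95 on the log2 scale, but -1.04 and no longer past the threshold without section C) and for Sulf1 (-3.05), Aldh1a3 (3.38) and Fgf15 (3.29) against cortical spots.

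Outside the spots analysed, 19 barcodes off the tissue with UMIs held 72 UMIs of Gad1, Gad2, Dlx1 and Dlx2 together. Of 456 tissue spots under 2000 UMIs, 6 scored at or above the lowest member.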

How the results depend on the processing

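Results are limited by 2 areas per stage and by the choice of spots. The 16 stage calls in members became 10 with DESeq2, 90 without a filter, 10 with at least 10 UMIs in every sum, 9 at an adjusted p of 0.05, 6 with sections as samples, 0 with members chosen on thinned spots, 0 with 400 spots, 9 without section C of E14.5 replicates 2-4 (added after seeing the data) and 43 to 142 when 1 area was left out. With the replicate block the count was 34, 4 of them higher. Same-numbered areas share a software version and a layout, and they were not taken as pairs in the main test. Their deviations from the stage means correlated at r = 0.03 across genes. With 2 areas per stage the 2 pairs mirror each other and give the same correlation, which cannot settle the pairing. The share difference of -0.33 points was unchanged under the replicate block, reversed to 0.290 with 150 spots and 0.406 with no minimum, and ran from -1.47 to 0.809 when 1 area was left out. The single call against all other spots became 137 with DESeq2, 953 without a filter, 20 with 150 spots, 40 without section C, 47 to 1008 when 1 area was left out, and 0 with at least 10 UMIs, an adjusted p of 0.05, thinned spots, 400 spots or 5000 UMIs. The 3 calls against cortical spots became 17 without a filter, 9 with thinned spots, 6 with 150 spots, 1 with 400 spots, 3 to 160 when 1 area was left out, and 0 with at least 10 UMIs or the same share of spots. With sections in place of areas the position difference was -0.108, with an exact sign-flip p of 0.03125. Sections that share an area are not separate samples, so nothing is read from this p. Of the sections of E14.5 replicates 2-4, section A had only 8 cortical spots and section C only 1. The GABAergic list's median log2 ratio of 2.28 was 1.62 with thinned spots. With members chosen on thinned spots the stage difference reversed for Myl4 (0.63), Gpc3 (0.59), Tnni1 (0.83) and Dlk1 (0.24), and the Sulf1 difference against cortical spots became 0.65. The causes were not tested. For the named genes under these settings, 295 values kept their side of the threshold, 106 lost their call, 12 gained one and 5 reversed.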
